A study of Mus musculus with 12 samples.

Results

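The data described are on H3K27ac, the acetylation of histone H3 at lysine 27 that marks active promoters and enhancers, at 10 genes of this pathway chosen by name: Acadvl, Acadl, Acadm, Acads, Hadha, Hadhb, Acaa2, Etfdh, Decr1 and Eci2. In the deposited table, 50 of the 126464 intervals carried 1 of these names, which covered 9 of the 10 genes among 22264 symbols. Etfdh had no interval under its name.

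Mitochondrial beta-oxidation shortens fatty acids in turns of a cycle of dehydrogenation, hydration, a second dehydrogenation and thiolytic cleavage, and each turn releases acetyl-CoA. Chain length decides which acyl-CoA dehydrogenase starts the cycle, the trifunctional protein carries long chains through the remaining steps, and auxiliary enzymes handle double bonds. In many tissues these genes are switched on together by nuclear receptors that sense fatty acids, a form of control in which substrate supply and enzyme supply are linked. The acetyl-CoA they make is a source of the acetyl groups placed on histones.

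The mark was measured by ChIP-seq in 4T1 cells (genotype WT in every group), a line derived from a mouse mammary carcinoma, grown in DMEM with 10% serum. All 6 treatments lasted 48 h: vehicle, 5 mM acetate, 50 µM etomoxir, etomoxir + acetate, etomoxir + SB204990 (50 µM each) and etomoxir + SB204990 + acetate. Etomoxir blocks CPT1, the carnitine palmitoyltransferase that admits long-chain fatty acids to mitochondria. SB204990 blocks ATP citrate lyase (ACLY), which makes acetyl-CoA outside mitochondria. It was given only together with etomoxir, so its own effect cannot be separated. Each treatment had 2 libraries, named set 1 and set 2 here after a suffix that the labels do not explain. Since nothing says that these came from separate cultures, p-values measure only the spread between libraries, which may be technical.

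Values are reads in an interval multiplied by the authors' spike-in factor for that library, called scaled reads below. The 12 libraries held 7179165 to 16676442 reads in intervals, and the factors ran from 0.398 to 1. Each set held exactly 1 library with the highest factor of 1 (etomoxir + acetate in set 1, etomoxir + SB204990 in set 2), so the sets may not share 1 scale, and fits with a term for the set are given where they changed a call. The etomoxir + SB204990 library of set 2 was the shallowest. Among markers of the line, 5 of 6 (Krt8, Krt14, Epcam, Cdh1 and Cldn7) had an interval, summing to 5352 to 12712 scaled reads per library, and Krt18 had none under its name. The leukocyte markers Ptprc, Cd3e and Itgam together reached 154 to 447 scaled reads, and the 4 adipocyte markers 93.6 to 274, with none for Plin1. The 3 endothelial markers gave 452 to 1258 without Tek. Of the hepatocyte markers, Alb and Ttr had no interval and Apoa1 gave 748 to 2289. All of these ranges are over the 12 libraries.

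The starts of all 10 genes carried H3K27ac. In GENCODE annotation of the same build (GRCm38, mm10 in the table), every coding transcript start of the 10 genes fell into 1 of 9 intervals, since Hadha and Hadhb are transcribed away from each other and shared 1. Of the 10 genes, 3 had their start interval under another name, in the case of Hadha that of its neighbour. The Etfdh start was at chr3:79626401-79630715, named for 4930579G24Rik, a gene that begins close by on the other strand. The Eci2 start was at chr13:34990910-34996244, named for Gm16984, an antisense RNA gene that ends before the interval begins. The only interval named Eci2, chr13:34996908-34997222 in an intron, had a mean of 4.47 scaled reads and was too weak to test. Gene sums by name therefore covered 8 genes, and the start intervals covered all 10.

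The sequences before 4 of these starts are shown because Acadl and Eci2 turned out to hold the start intervals that rose with etomoxir, because Hadha and Hadhb share theirs, and because Etfdh alone held an NRF1 element. They are printed 5′ to 3′ on the strand of the gene (Hadhb strand for the shared one), from RefSeq promoters of GRCm38.p6, and end at or before the outermost start. Capitals mark GC boxes (letters GGGCGG), the NRF1 element and CCAAT boxes, each on either strand.
Acadl, chr1:66863310-66863559, minus strand: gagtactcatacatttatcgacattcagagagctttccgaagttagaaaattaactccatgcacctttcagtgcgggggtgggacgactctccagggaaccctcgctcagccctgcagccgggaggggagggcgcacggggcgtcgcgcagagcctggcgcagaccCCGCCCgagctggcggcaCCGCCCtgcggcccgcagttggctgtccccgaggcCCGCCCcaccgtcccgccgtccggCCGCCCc
Eci2, chr13:34994282-34994394, minus strand: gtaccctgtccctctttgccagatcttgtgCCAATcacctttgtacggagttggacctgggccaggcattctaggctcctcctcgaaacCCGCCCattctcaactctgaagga
Etfdh, chr3:79628864-79629017, minus strand: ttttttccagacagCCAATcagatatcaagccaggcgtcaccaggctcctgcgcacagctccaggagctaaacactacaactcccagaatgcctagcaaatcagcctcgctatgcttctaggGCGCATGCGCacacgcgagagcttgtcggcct
Hadha and Hadhb, chr5:30155163-30155247, plus strand: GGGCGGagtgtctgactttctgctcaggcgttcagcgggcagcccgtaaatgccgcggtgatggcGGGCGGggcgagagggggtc

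The stretch between the Hadha and Hadhb starts was 85 bases long. RefSeq promoters of 300 bases were matched for 8 of the 10 genes. Acadl was the richest in CpG, with 34, compared with a median of 7 over 32851 promoters, and Acadvl the poorest with 9. A GC box was found in 6 of the 8, against 35.7% of all promoters, and a CCAAT box in Etfdh and Eci2, against 37.4%. The windows of Hadha and Hadhb overlap and share a GC box, so that they were not separate counts. The NRF1 element occurred in 4.60% of all promoters. The nuclear receptor half-site AGGTCA was present in Acadvl and Acadm, against 16.3% of all promoters. Its direct repeat with 1 base between, the form bound by PPAR and its partner, was in none of the 8, compared with 0.381% of all. The estrogen-related receptor element, which contains the half-site, was in none either, compared with 1.28%. These are matches of letters in the stated windows.

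Levels at the starts were set per length, in scaled reads per kb averaged over the 12 libraries. The shared start of Hadha and Hadhb, the 2 subunits of the trifunctional protein, was highest at 66.6, followed by that of Acadl, the long-chain acyl-CoA dehydrogenase, at 63.3. They stood at the percentiles 92.6 and 90.6 of the 10510 intervals that hold a coding start. A middle group followed, in which Etfdh had 38.4, Acaa2 35.6, Acadm 32.8, Eci2 31.8, Acadvl 26.7 and Acads 26.6. The Acads value is an average over 28728 bp that also cover most of the neighbouring gene Unc119b. Decr1, which reduces double bonds of unsaturated acyl-CoA, was lowest at 15.9 (percentile 6.43), with only 11 to 37 reads per library. The ranges over the 12 libraries overlapped between all neighbours in this order. The order depended on the treatment. Under vehicle the shared start of Hadha and Hadhb had 54.2 and Acadl 37.9, followed by Etfdh with 26.3, Acaa2 with 26.2, Acadm with 24.3, Acads with 20.1, Eci2 with 17.4, Acadvl with 16.8 and Decr1 with 9.57. Under etomoxir Acadl had 65.0 and the shared start 61.4.

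**Figure D1:**
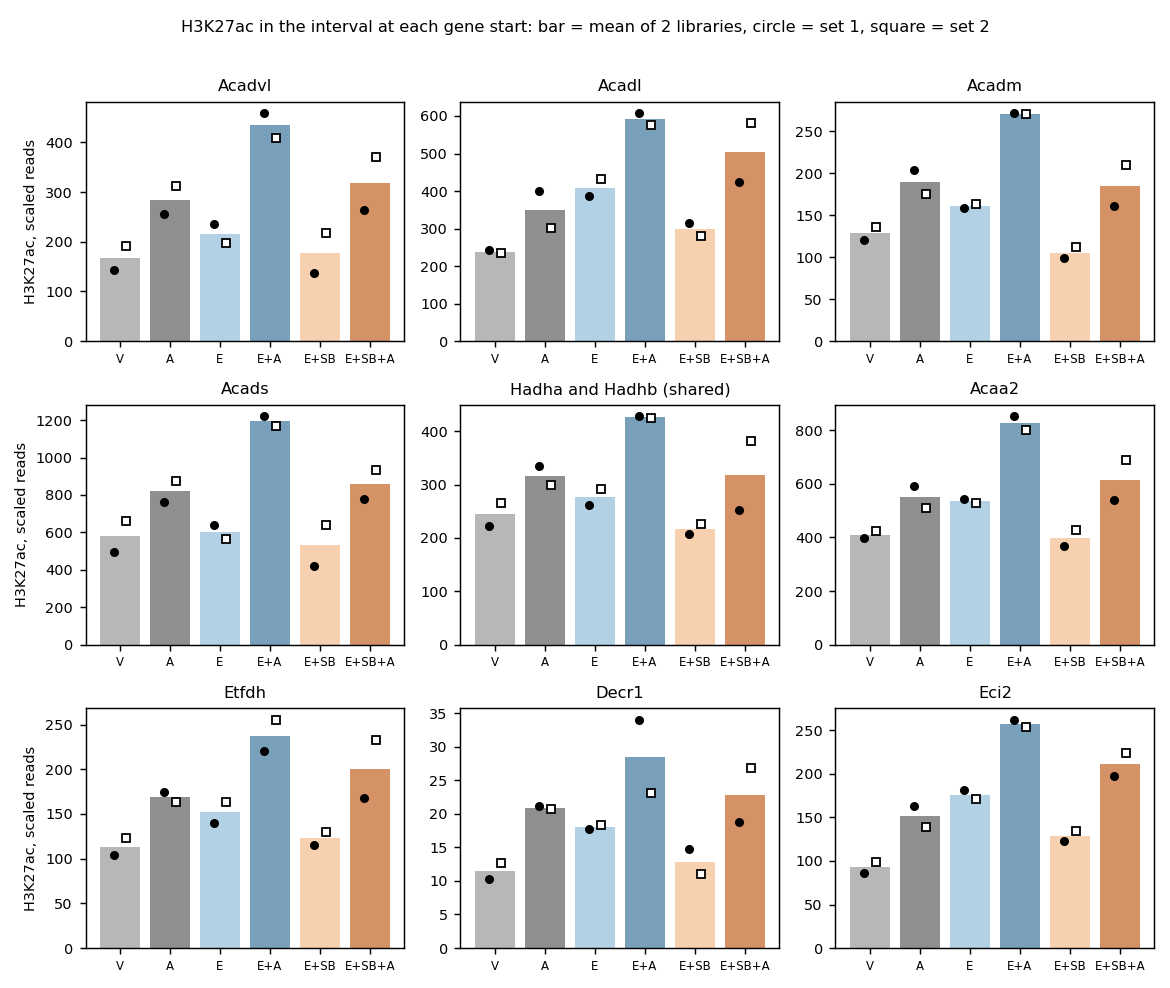
Scaled reads of H3K27ac (linear axis from 0) in the interval at each gene start under vehicle (V), acetate (A), etomoxir (E) and etomoxir + SB204990 (E+SB), the latter 2 also with acetate (+A), with bars for the mean of 2 libraries and points for set 1 and set 2. In all 9 intervals the highest mean was that of etomoxir + acetate, for example 592 at Acadl and 1195 at Acads. The 2 libraries of that treatment also had the highest totals of scaled reads over all intervals of the series, 13652107 and 12914788.

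Acetate raised H3K27ac at all 8 tested genes, and by about as much as at all genes tested. To see whether the pathway followed acetyl-CoA supply, treatments with and without acetate were compared. The average acetate effect over the 3 inhibitor backgrounds was 0.56 to 0.90 on the log2 scale for the 8 gene sums (adjusted p from 1.48e-05 to 0.0188 by limma with Benjamini-Hochberg adjustment), and 8 of 8 were called higher. Over all 19458 genes tested, 88.2% were called higher, with a median of 0.63, and the median of the 8 was 0.66. A pseudocount of 1 was added to all values, so that changes of low intervals are understated. Median-of-ratios scaling divides each library by its median ratio, over genes, to the geometric mean of the 12 libraries. This removes any change common to all genes. After it the 8 values lay between -0.08 and 0.26 and none was called, against 0.0668% of all genes called higher. In bulk cultures a mark on more cells and more of the mark per cell cannot be told apart. The change was thus shared with most genes. With a depth-corrected scaling (each library's share of reads, then times its factor), the 8 values were 0.35 to 0.69 and the median over all genes 0.43, and no gene was called by limma (adjusted p of the 8 from 0.395 to 0.412, with 611 of 19458 genes at an unadjusted p under 0.05).

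The acyl-CoA dehydrogenases act on the 1st step. Acadvl, which takes very long chains, had sums of 248.7 and 299.5 scaled reads under vehicle and 454 and 497 under acetate (set 1 and set 2). It reached 668 and 633 under etomoxir + acetate against 345 and 291 under etomoxir. Its values with acetate lay above those without it in every background. The average acetate effect of 0.90 ± 0.13 (SE) was the largest of the 8, and after median-of-ratios scaling it was 0.26 with an adjusted p of 0.0983. Acads, for short chains, followed at 0.74 ± 0.12, Acadm, for medium chains, at 0.68 ± 0.13 and Acadl at 0.63 ± 0.11. For the later steps, Acaa2, the thiolase, had 0.58 ± 0.11, Hadha 0.57 ± 0.16 and Hadhb 0.56 ± 0.12. Decr1 had 0.73 ± 0.28, the widest error, and it was no longer called without 1 library of vehicle, etomoxir or etomoxir + acetate in set 1 (adjusted p = 0.0594, 0.0516 and 0.0815 by limma).

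Within single backgrounds the acetate difference was called for 7 of 8 genes with etomoxir (all but Decr1, against 78.2% of all genes) and for 6 of 8 with etomoxir + SB204990 (all but Decr1 and Hadha, against 57.7%). After median-of-ratios, total-sum and depth-corrected scaling both counts were 0, as was the count over all genes by limma. The depth-corrected values with etomoxir were 0.65 to 1.07 (0.61 to 1.03 as deposited), while those with etomoxir + SB204990 fell to 0.13 to 0.44 from 0.55 to 0.86, for example to 0.23 from 0.65 at Acadl, beside a median over all genes of 0.22 in place of 0.64. At an unadjusted p under 0.05 in limma, 774 of 19458 genes were found with etomoxir and 1 with etomoxir + SB204990 under that scaling, and 1279 and 865 under median-of-ratios. Without inhibitors none of the 8 was called and none of 19458 genes, although the 8 values were 0.33 to 0.82 and 6 of them, like 8341 of all genes, had an unadjusted p under 0.05 in limma. DESeq2 called 5 of the 8 there, and 27.6% of all genes. With a term for the set, 3 of the 8 were called (Acadl, Acads and Acadvl), and 20% of all genes. The count with etomoxir fell to 4 without the etomoxir + acetate library of set 1, where 28.8% of all genes were called. The count with etomoxir + SB204990 fell to 0 without the etomoxir + SB204990 library of set 1 (23.3% of all genes) or the etomoxir + SB204990 + acetate library of set 2 (0% of all genes). The interactions of acetate with the inhibitors were called for none of the 8 and for no gene at all by limma, where 0 of the 8 had an unadjusted p under 0.05, compared with 31 of all genes for etomoxir and 11 for etomoxir + SB204990. The start intervals of Etfdh and Eci2, which are missing from the sums, rose by 0.64 ± 0.13 and 0.65 ± 0.13 with acetate on average (adjusted p = 1.21e-05 and 7.29e-06 by limma over intervals, where 77.2% of 63903 were called higher). All 9 start intervals were called in this average, at 0.50 to 0.88, and 0 of 9 after median-of-ratios scaling (0.00156% of intervals called higher). With etomoxir 8 of 9 were called (against 56.4% of intervals) and with etomoxir + SB204990 8 of 9 (against 27.4%), all but Decr1 in both. None of these calls held after median-of-ratios scaling, at -0.31 to 0.17 with etomoxir and -0.11 to 0.24 with etomoxir + SB204990, or with depth-corrected scaling, at 0.57 to 1.04 and 0.10 to 0.44 (adjusted p at least 0.875 and 0.361 by limma).

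As deposited, etomoxir was followed by more H3K27ac at the starts of Acadl and Eci2, calls lost under median-of-ratios and depth-corrected scaling. To ask whether blocking fatty acid entry changed the mark at the enzymes that lie downstream, etomoxir was compared with its absence, with and without acetate (average etomoxir effect). No gene sum was called, against 0.298% of all genes called higher. All 8 values were above 0, from 0.31 to 0.63, and above the median of 0.29 over all genes. The highest was that of Hadha, whose sum lacks its start interval (named Hadhb, at 0.31). Of the 8, 7 had an unadjusted p under 0.05 in limma, compared with 5342 of 19458 genes. After median-of-ratios scaling the 8 ranged from 0.02 to 0.34 and none was called, against 0.252% of all genes called higher, and 4 had an unadjusted p under 0.05 in limma, compared with 1515 of 19458 genes. Acadl was nearest with 0.58 ± 0.13 and an adjusted p of 0.0564, which ranged from 0.000394 to 0.966 over the alternatives. With a term for the set Acadl was called (adjusted p = 0.00305 by limma), as were 1.35% of all genes, and 5 intervals were called in place of 3, against 0.853% of all intervals. The 2 gained were the Acaa2 start and an intronic interval of Hadhb, chr5:30173720-30175373. Without either etomoxir + SB204990 library, which enter this comparison only through the common spread, 7 of the 8 were called (not Decr1), as were 32.4% (set 1 left out) and 32.7% (set 2 left out) of all genes.

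Among single intervals, 3 at these genes were called in the average etomoxir effect, against 0.419% of all intervals called higher. They were 2 of the 25 tested intervals under the names of these genes, and the Eci2 start, which is named for Gm16984. At the Acadl start (chr1:66858747-66865041), vehicle libraries had 242 and 235 scaled reads and etomoxir libraries 387 and 431. With acetate alone the values were 399 and 302, and with etomoxir + acetate 608 and 577. Without acetate and with it, both etomoxir libraries were above both libraries lacking etomoxir. The average effect was 0.77 ± 0.14, a 1.71-fold change (adjusted p = 3.90e-05 by limma), with 0.64 in set 1 and 0.90 in set 2. At etomoxir + SB204990 the Acadl start had 315 and 280 scaled reads, and 424 and 582 with acetate, an average effect of 0.42 ± 0.14 that was not called (adjusted p = 0.297 by limma).

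The Eci2 start behaved alike. Eci2 moves double bonds so that unsaturated chains can enter the cycle. It had 86.5 and 99.0 scaled reads under vehicle, 182 and 171 under etomoxir, 164 and 139 under acetate, and 262 and 253 under etomoxir + acetate. Again both etomoxir libraries were above both others in each acetate state. The average etomoxir effect was 0.85 ± 0.16, a 1.80-fold change (adjusted p = 0.000234 by limma), with 0.87 in set 1 and 0.82 in set 2. With SB204990 added, 123 and 134 scaled reads were found, and 198 and 224 with acetate (average effect 0.47 ± 0.16, adjusted p = 0.358 by limma).

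The third interval, chr5:30169370-30171476 in an intron of Hadhb about 15 kb into the gene, was weaker. It had 16.4 and 23.0 scaled reads under vehicle and 45.7 and 34.4 under etomoxir. Under acetate it had 24.7 and 33.6, and under etomoxir + acetate 81.0 and 46.1. The average effect was 1.03 ± 0.26 (adjusted p = 0.0314 by limma), but 1.55 in set 1 and 0.50 in set 2. The call was lost without any 1 of 7 libraries: both of acetate, etomoxir and etomoxir + acetate, and that of vehicle in set 1 (adjusted p from 0.0603 to 0.574). All 3 calls were lost after median-of-ratios scaling (0.0814% of intervals called higher), where the Acadl start had 0.44 (adjusted p = 0.755), the Eci2 start 0.51 (0.371) and the Hadhb intron 0.71 (0.286) in limma. They were also lost with the depth-corrected scaling, at 0.68, 0.76 and 0.94, each with an adjusted p of 0.993 in limma, and without the intensity trend (adjusted p = 0.336, 0.263 and 0.336).

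The other 7 starts showed smaller changes with etomoxir. Acaa2 was nearest to the threshold at 0.49 ± 0.13 (adjusted p = 0.0563 by limma, and 0.0252 with a term for the set, where it was called), with 396 and 423 scaled reads under vehicle and 544 and 528 under etomoxir. Acadvl had 0.49, Decr1 0.51, Etfdh 0.45, Acadm 0.42, Acads 0.31 and the shared start of Hadha and Hadhb 0.31, and the median over all tested intervals was 0.33. After median-of-ratios scaling the last 2 were at -0.03 each, and the other 5 stayed above 0. The strongest interval named Hadha, at chr5:30125213-30130531, had 64.5 and 96.7 scaled reads under vehicle and 105 and 92.8 under etomoxir, which overlap, and an average effect of 0.57 ± 0.19 (adjusted p = 0.146 by limma).

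**Figure D2:**
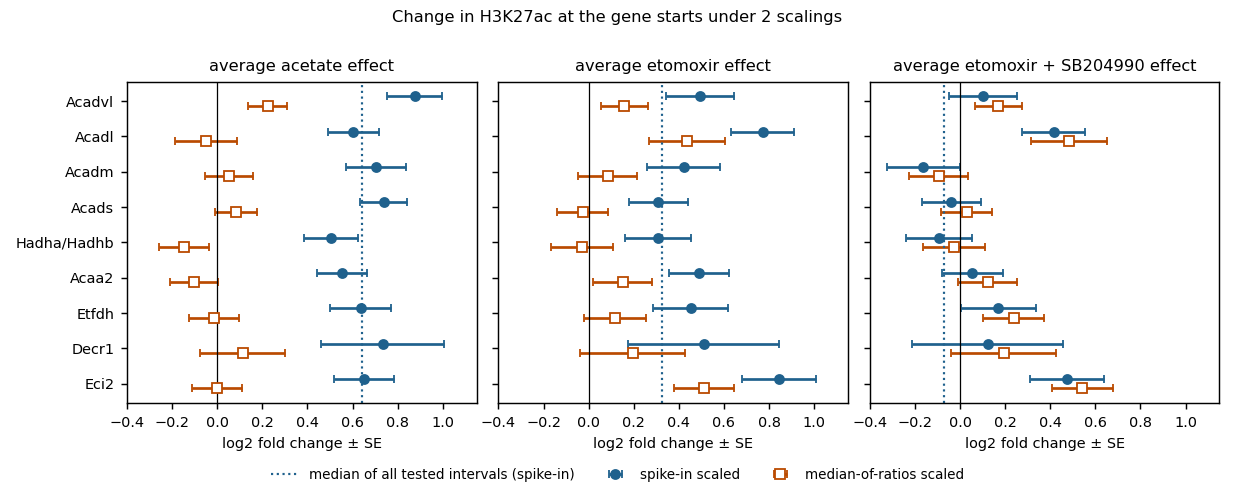
Change in H3K27ac at the gene starts (log2 fold change with SE from limma, 12 libraries) for the average effects of acetate, etomoxir and etomoxir + SB204990, spike-in scaled (filled circles) and after median-of-ratios scaling (open squares), with a dotted line for the median of all tested intervals. Eci2 and Acadl lie furthest right for etomoxir, at 0.85 and 0.77, and remain above 0 as 0.51 and 0.44 after median-of-ratios scaling, while all acetate values move to between -0.15 and 0.22.

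In the combination of etomoxir and SB204990 no member sum and no start interval was called against its counterpart, and none of the 8 sums had an unadjusted p under 0.05. Of the 9 starts, 2 had such a p in limma, compared with 2935 of 63903 intervals. Background calls were 0.0719% higher and 0.0103% lower over all genes, and 0.0986% and 0.252% over intervals. The average effect on the sums ranged from -0.13 (Acadm) to 0.16 (Acadl), with a median of 0.02, and the median over all genes was -0.10. Only 1 of the 8 sums had the same sign in both sets. The etomoxir + SB204990 library of set 2, the shallowest, gave for example 315 scaled reads at Acadvl where set 1 gave 201. Leaving out either library of this treatment left the count at 0. Etomoxir + SB204990 differed from etomoxir by -0.47 to -0.21 over the 8 sums, compared with a median of -0.33 over all genes, and no gene was called by limma in this pair (1 of the 8 and 4087 of all genes had an unadjusted p under 0.05). The direction depended on the scaling. With depth-corrected scaling 7 of the 8 were above 0 (-0.0025 to 0.29, median over all genes 0.16), and after median-of-ratios scaling they lay between -0.17 and 0.11.

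Single treatments against vehicle gave no member call for etomoxir alone (0.07 to 0.61, against 0.0154% of genes called higher) or for etomoxir + SB204990 (-0.20 to 0.15, against 0.00514%), where 1 and 0 of the 8 had an unadjusted p under 0.05 in limma. Etomoxir + acetate vs. vehicle, which differ in both treatments, was called for 8 of 8 sums, at 0.99 to 1.25, against 85.7% of all genes. After median-of-ratios scaling these were 0.07 to 0.35 and 0 of 8 were called (adjusted p from 0.430 to 0.782 by limma), while 12 of 19458 genes were called. With depth-corrected scaling they were 0.81 to 1.06, and no gene was called by limma (325 of 19458 had an unadjusted p under 0.05). No sum was called for etomoxir + acetate vs. acetate (0.41 to 0.88, against 0.0771%), for the triple combination vs. acetate (-0.06 to 0.22, against 0.0463%) or for it vs. vehicle (0.44 to 0.92, against 0.38%). Unadjusted p-values under 0.05 in limma were found for 6, 0 and 6 of the 8, and for 6334, 132 and 7153 of 19458 genes. The Eci2 start rose most in etomoxir + acetate vs. vehicle, by 1.47 ± 0.23 (adjusted p = 1.18e-07 by limma), then Acadvl with 1.38 ± 0.21 and Acadl with 1.31 ± 0.20, and all 9 starts were called (against 74.6% of intervals). After median-of-ratios scaling the 9 lay between -0.20 and 0.46 and with depth-corrected scaling between 0.62 and 1.28, and 0 of 9 were called under either (adjusted p from 0.795 to 1.00 and 0.423 by limma). In the triple combination vs. vehicle 4 of 9 starts were called, against 1.68% of intervals. These were Eci2 with 1.18 ± 0.23, Acadl with 1.05 ± 0.20, Acadvl with 0.91 ± 0.21 and Etfdh with 0.80 ± 0.23 (adjusted p from 8.7e-05 to 0.0416 by limma). All 4 calls were lost after median-of-ratios scaling, at 0.69, 0.56, 0.42 and 0.31 (adjusted p = 0.482, 0.886, 0.750 and 0.976 by limma), where 35 of 63903 intervals were called higher. They were also lost with depth-corrected scaling, at 1.04, 0.91, 0.77 and 0.66 (adjusted p = 1.00 for each by limma). Etfdh passed in 8 of 22 alternatives, Acadvl in 15, and Acadl and Eci2 in 17 each.

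**Figure D3:**
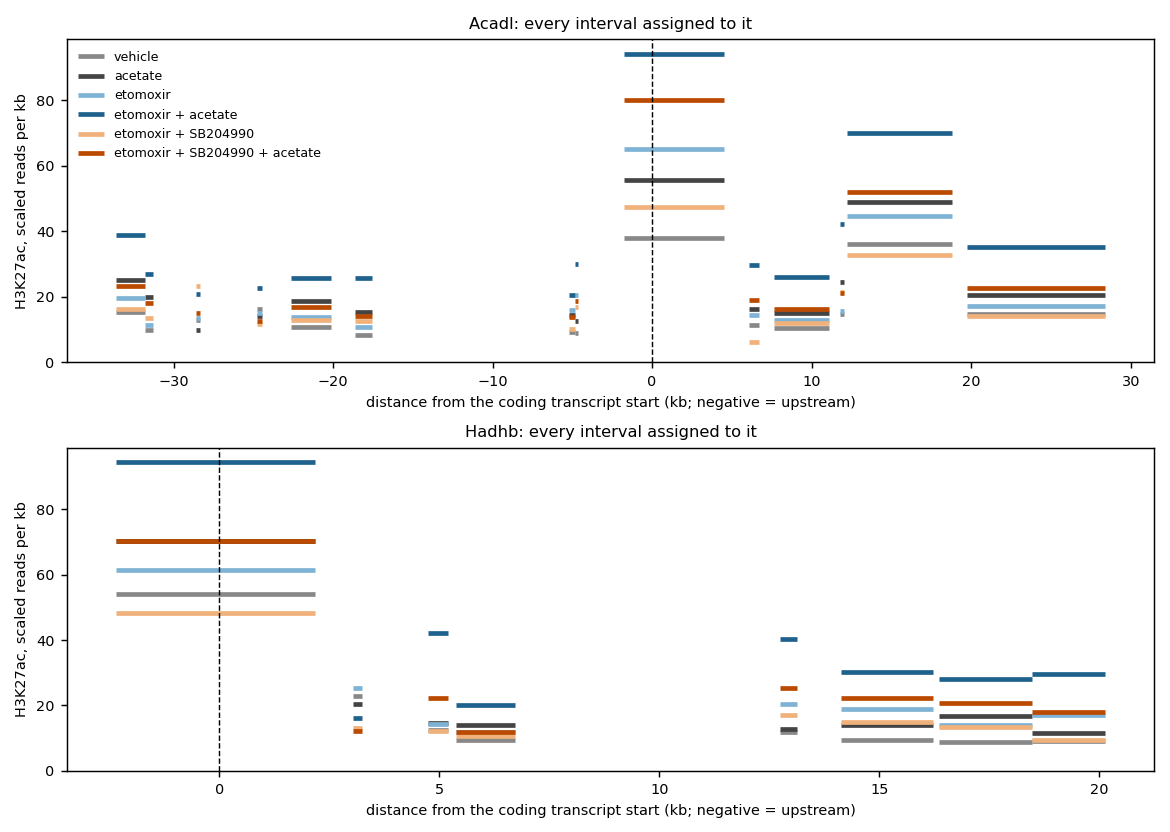
Scaled reads per kb (mean of 2 libraries per treatment, linear axis from 0) in every interval assigned to Acadl and to Hadhb, drawn over its extent by distance in kb from the coding start, with a dashed line at the start. At the Acadl start etomoxir reaches 65.0 against 37.9 for vehicle, while the interval about 15 kb inside the gene has 44.8 and 36.1.

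Shares within a library do not depend on the spike-in factor, and they were added after the values had been seen. The 50 named intervals took 0.0376% to 0.0401% of all reads in intervals in the 4 libraries without etomoxir. In the 8 libraries with it, with or without SB204990, they took 0.0428% to 0.0454%, so that the groups did not overlap. The shares of the carnitine shuttle genes described below did not overlap either, while those of the other gene lists described there did. How often sums over other genes separate in this way was not tested. The 9 start intervals went from 0.0267% to 0.0289% without etomoxir to 0.0304% to 0.0337% with it. Over the same libraries, all intervals holding a coding start together took 50.3% to 53.9% and 45.7% to 54.7%, which overlap. For single starts, the shares did not overlap at Eci2, with 12.7 to 16.3 RPM (reads relative to all reads in intervals) without etomoxir and 18.7 to 23.0 with it, and at Acaa2, with 51.0 to 58.6 and 59.8 to 68.6. That was 2 of 9, compared with 0.774% of all tested intervals holding a coding start that were higher without overlap and 0.813% that were lower. At the Acadl start the ranges of 30.2 to 39.6 and 39.0 to 58.9 overlapped.

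The start was also set beside the rest of its locus, as the ratio of the start interval to the sum of the other intervals that carry the name of the gene. This was added after the values had been seen. It could be taken for 6 of the 10 genes, and for Eci2 against the 5 other intervals that overlap the gene, of which 4 carry the name Gm16984. Over all 8243 genes with such a ratio (mean of at least 10 on both sides and no library at 0), 1.04% were higher and 3.76% lower with etomoxir at an exact permutation p under 0.05, 0% passed after Benjamini-Hochberg adjustment over these genes, and the median log2 difference was -0.11. At Acadvl the only other interval (chr11:70017017-70021927, upstream) holds a coding start of the neighbouring gene Dlg4, so that its ratio sets the starts of 2 genes side by side. It was 1.29 to 1.76 without etomoxir and 1.83 to 2.23 with it. The mean log2 difference was 0.48 (exact two-sided permutation of etomoxir labels within acetate state, p = 0.00444, adjusted over the 8243 genes 0.796). That p is the smallest that the 225 arrangements can give. The interval at Dlg4 itself changed by 0.05 on average with etomoxir, compared with 0.49 at the start.

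At Hadhb the mean ratio was lower with etomoxir. The shared start was 2.36 to 3.24 times the 7 other Hadhb intervals without etomoxir and 1.63 to 2.63 times with it, a mean log2 difference of -0.51 (exact permutation p = 0.00889, adjusted 0.842), with overlap of the ranges. The other Hadhb intervals include the intronic 1 above and chr5:30173720-30175373 (average effect 1.07 ± 0.31, adjusted p = 0.0819 by limma, and 0.0321 with a term for the set). At Acadl the start was 0.433 to 0.564 of the rest without etomoxir and 0.474 to 0.825 with it, and these ranges overlapped. The mean log2 difference was 0.36 (exact permutation p = 0.0533, adjusted 0.910). The ratio differed by -0.21 to 0.18 at Acadm, Hadha, Acaa2 and Eci2, with unadjusted exact permutation p between 0.187 and 0.920.

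**Figure D4:**
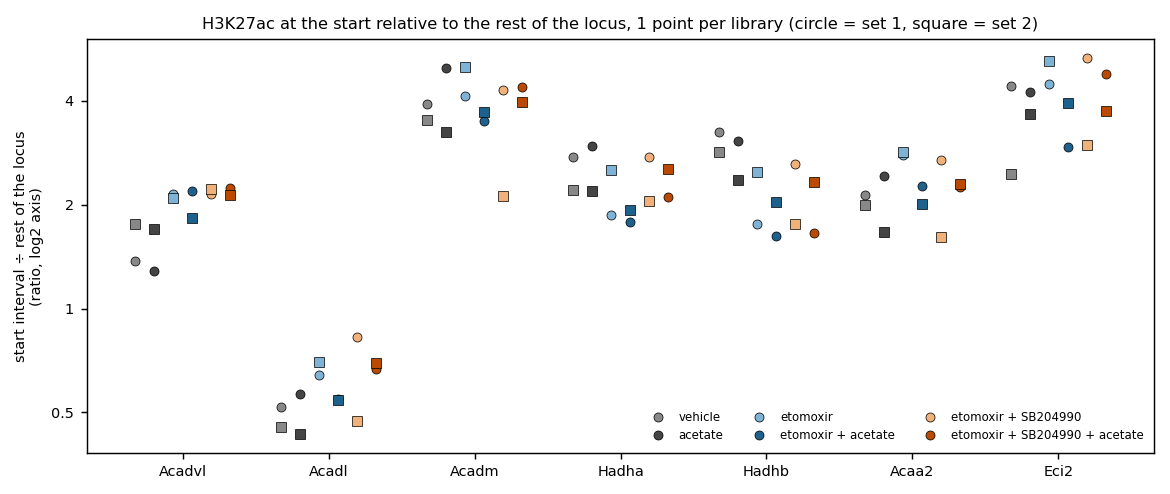
Ratio of the start interval to the summed other intervals of the locus (log2 axis, no unit; at Acadvl the other interval holds the Dlg4 start), 1 point per library coloured by treatment, circles for set 1 and squares for set 2. At Acadvl the ratio is 1.83 to 2.23 in the 8 libraries with etomoxir and 1.29 to 1.76 in the 4 without. At Hadhb it is lower on average with etomoxir, and the ranges overlap.

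The neighbouring steps of the pathway were described by the same gene sums, without a test of the lists. In the average etomoxir effect, 2 of 10 tested genes of the carnitine shuttle and fatty acid activation were called, both higher, against 0.298% of all genes called higher. Cpt1a, the target of etomoxir, rose by 0.90 ± 0.14 (adjusted p = 0.000835 by limma) and Cpt2, which returns the acyl group to CoA inside mitochondria, by 0.93 ± 0.17 (adjusted p = 0.00557). Both also passed after median-of-ratios scaling, at 0.61 and 0.64 (adjusted p = 0.00196 and 0.0120 by limma). With depth-corrected scaling they had 0.80 and 0.84 and neither was called (adjusted p = 0.966 for both by limma), nor was any other of the 19458 genes, where 28 had an unadjusted p under 0.05. Slc25a20, the carrier between them, had 0.70 ± 0.19 and an adjusted p of 0.181. Cpt1a had 810 and 1072 scaled reads under vehicle, 1669 and 1650 under etomoxir, and 1244 and 1644 under etomoxir + SB204990.

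Of 13 other beta-oxidation genes none was called, against the same 0.298%, with Etfa and Etfb, the subunits of the flavoprotein that passes electrons to the Etfdh product, at 0.46 and 0.53, and Hadh at 0.54 (adjusted p = 0.181 for each by limma). None of 14 peroxisomal genes was called, with Abcd3 at 0.40 and Acaa1a at 0.34. None of 49 respiratory chain genes was called either, with Ndufb6 at 0.55, Ndufa12 at 0.44 and Ndufs1 at 0.63. The list medians were 0.44 for the beta-oxidation enzymes described here, 0.43 for the shuttle, 0.37 for the other beta-oxidation genes, 0.32 for the peroxisome and 0.33 for the respiratory chain, beside 0.29 for all genes. As a share of reads in intervals, the shuttle went from 0.0442% to 0.0485% without etomoxir to 0.0577% to 0.0619% with it, while the shares of the last 3 lists overlapped between the groups. Larger changes than any member's were known at Pdk4, a kinase that holds back glucose oxidation, with 1.54 ± 0.13 (adjusted p = 2.95e-07), and Acot2, a mitochondrial thioesterase, with 1.24 ± 0.15 (adjusted p = 3.15e-05 by limma). After median-of-ratios scaling they had 1.25 and 0.95 and both were called, and with depth-corrected scaling neither was (adjusted p = 0.631 and 0.966 by limma). Acly, the target of SB204990, had 0.26 ± 0.15 (adjusted p = 0.214).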

How the data were processed

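The genes, lists and tests were chosen with earlier results of these data known. The authors aligned reads to a merged GRCh38 and mm10 genome with nf-core/chipseq and multiplied the reads of each interval by a spike-in factor from the share of human chromatin (7.5% added). The deposited signal values are therefore whole reads times 1 factor per library (100% whole within 0.01), and in 2 libraries, with a factor of 1, the deposited values were counts. Intervals were summed per gene name. Sums (19458 tested) and intervals (63903 tested) with a mean of at least 10 were fitted with limma 3.58.1 (R 4.3.3, intensity trend, log2 with pseudocount 1, 6 group means, 12 libraries) and called where the adjusted p (Benjamini-Hochberg, over all features) was below 0.05. The fit was tested on simulated data. Alternatives were median-of-ratios, total-sum and depth-corrected scalings, a pseudocount of 10, no filter or a mean of 50, no trend, edgeR 4.0.16, DESeq2 1.42.0, a replicate block, leaving out each library, and other ways of assigning intervals. Named were all 10 genes, their strongest, start and called intervals, up to 3 genes per list with the smallest adjusted p for etomoxir, and Cpt1a, Acly, Pdk4 and Acot2. A gene that this rule names is not reported here.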

Additional observations from a re-analysis of the deposited data

Results flagged for a closer look

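With libraries matched by set number, the sums of 2 genes had opposite signs for etomoxir + SB204990 without and with acetate, although a pairing by set was not shown and the unpaired libraries overlapped. Acads had -0.14 on the log2 scale without acetate (-0.23 and -0.05 in sets 1 and 2) and 0.06 with it (0.03 and 0.09), a difference of 0.20. Hadha had -0.11 (-0.09 and -0.12) and 0.11 (0.08 and 0.15), a difference of 0.22. Neither passed the interaction of acetate with etomoxir + SB204990 in limma (adjusted p = 0.999 for both), and both differences were smaller than their SE of 0.29 and 0.39. After median-of-ratios scaling the signs were no longer opposite, with 0.04 and 0.08 for Acads and 0.08 and 0.14 for Hadha.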

How the results depend on the processing

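The acetate calls depended on the scaling. Under median-of-ratios, total-sum and depth-corrected scaling, 0 member genes were called for acetate with etomoxir or with etomoxir + SB204990. For the average acetate effect, 0 member genes and 0 member intervals were called under them (0.00156%, 0.0908% and 0% of all intervals). As deposited, 29 of 34 tested intervals named for or overlapping these genes were called for it, against 77.2% of all intervals. With a mean of at least 50, 14 of 14 tested were called, against 99.1%. Under depth-corrected scaling the average effects fell to 0.35 to 0.69, from 0.56 to 0.90, and 0 of all genes were called. Median-of-ratios scaling turned the average acetate effect to -0.00650 for Acadl, -0.0597 for Hadha, -0.0808 for Hadhb and -0.0560 for Acaa2. It gave -0.0621, -0.0933 and -0.0470 for Acadl, Hadhb and Acaa2 with etomoxir, and -0.0898 and -0.0755 for Hadhb and Acaa2 with etomoxir + SB204990. Total-sum scaling gave average acetate effects of -0.0475 for Hadha, -0.0684 for Hadhb and -0.0437 for Acaa2. With etomoxir it gave -0.0207, -0.0520 and -0.00570 for Acadl, Hadhb and Acaa2, and with etomoxir + SB204990 -0.0133, -0.11 and -0.0958.

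For the average etomoxir effect on gene sums, 1 member was called under total-sum scaling (0.416% of all genes), 1 with a mean of at least 50 (0.431%), 3 by DESeq2 (1.71%), and 2 each with overlapping intervals and with the start interval only (0.308% for both). Of the member intervals 0 were called under median-of-ratios scaling, 1 under total-sum scaling (0.221% of all), 0 with depth-corrected scaling and 0 without the trend. Total-sum scaling called 1 gene for etomoxir + SB204990 (1.97%). DESeq2 called 5 for acetate vs. vehicle (27.6%). The causes were not tested.

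Leaving out 1 library gave 0 to 6 genes for acetate vs. vehicle (6 without either etomoxir + SB204990 library, where 61.1% and 61.2% of all genes were called), 0 for etomoxir vs. vehicle, etomoxir + SB204990 vs. vehicle and the average etomoxir + SB204990 effect, 4 to 7 for acetate with etomoxir, 0 to 7 with etomoxir + SB204990, 7 to 8 for the average acetate effect and 0 to 7 for the average etomoxir effect. It gave 24 to 34 intervals for acetate and 2 to 13 for etomoxir. With all 12 libraries, 77.2% and 0.419% of all intervals were called higher. The 13 were called without either etomoxir + SB204990 library, where 10.9% of all intervals were called. edgeR, a pseudocount of 10 and no filter kept all counts within 1.5 times.

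Deviations of libraries with equal set numbers correlated at -0.22 to 0.60, at 0.56 to 0.60 among vehicle, acetate and etomoxir + SB204990, so that a pairing over all treatments was not shown. With the set number as a replicate block, 3 genes were called for acetate vs. vehicle (20% of all genes), and 1 gene (1.35%) and 5 intervals (0.853% of all intervals) for the average etomoxir effect. The other 7 counts of calls were the same.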
